A study of Mus musculus with 12 samples.

Results

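Polysome-bound mRNA of Lsm14b-KO oocytes was compared with that of WT oocytes in 6 of the study's 12 libraries, 3 of each genotype. The genes described are the 9536 of 24259 in the deposited table whose level reached 1 FPKM (a fragment count divided by transcript length and library depth) in at least 3 of these 6 libraries. The oocytes were at the germinal vesicle (GV) stage, in which the nucleus of prophase I is still intact. They came from mice 3 weeks old, 46 h after an injection of 5 IU of pregnant mare serum gonadotropin (PMSG), which drives follicle growth, and were kept in cycloheximide, which holds ribosomes on mRNA. Lysates of about 1500 oocytes were separated on sucrose gradients, and of the 28 fractions collected, 11 to 28 formed the polysome pool and 1 to 10 the RNP pool. The controls were WT mice. The KO mice, on a C57BL/6J background, were homozygous for tm1a(KOMP)Mbp, a knockout-first insertion in Lsm14b that carries a reporter, and since the allele was inherited, the gene was disrupted in the whole animal and not only at the stage sampled. The labels do not say that the 3 libraries of a group came from separate collections of mice, so p-values measure the spread between these libraries, which may be technical.

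LSM14B belongs to the LSM14 family of RNA-binding proteins, which sit with the helicase DDX6 and the repressor 4E-T on mRNAs that are kept silent. For LSM14B in mouse oocytes, the study's authors propose that it probably acts mainly by promoting translation of certain mRNAs and not by repressing it. A growing oocyte makes the mRNAs that meiosis and the first divisions of the embryo will use, and then stops transcription. From then on, which proteins are made depends on which stored mRNAs are joined to ribosomes, on the length of their poly(A) tails and on when they are degraded. Polysomes are mRNAs that carry several ribosomes, and they sediment deep into a sucrose gradient, whereas mRNAs in repressed particles stay near its top.

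The libraries held an estimated 5.06 to 6.56 M fragments in KO and 6.15 to 7.84 M in WT, as judged from the steps between low FPKM values. The KO libraries listed 11458 to 11650 genes above 0 and the WT libraries 10566 to 10814. Pearson's r of log2(FPKM + 1) across genes was 0.931 to 0.935 between KO libraries, 0.876 to 0.879 between WT libraries and 0.849 to 0.857 between genotypes. KO replicate 2 listed the microRNA gene Mir300 at 170809 FPKM, against 0 in the other 5 libraries. The 45S rRNA precursor Rn45s stood at 11394, 10707 and 10715 FPKM in the KO libraries and 5119, 7915 and 4664 FPKM in the WT libraries. All 14 oocyte markers were tested, with Gdf9, the oocyte's growth factor for granulosa cells, the highest gene of the set at 16108, 17406 and 18497 FPKM in the KO libraries and 15569, 16191 and 14480.1 FPKM in the WT libraries. Of 39 markers of other ovarian and blood cells, 18 were listed at 0 in all 6 libraries and 11 passed the filter on low values. Markers of granulosa and cumulus cells, the follicle cells around the oocyte, summed to 88.3 to 110.4 FPKM in KO and 27.4 to 75.5 FPKM in WT. Their part in the results was not tested. Some housekeeping genes were listed at 0 as well, among them 10 of 84 cytosolic ribosomal protein genes in all 6 libraries, so a 0 in this table is given only as a listed value.

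The polysome pools of KO and WT oocytes differed in both directions. On log2(FPKM + 1), 989 of 9536 genes (10.4%) passed limma with Benjamini-Hochberg adjustment at 0.05, of which 538 (5.64%) were higher and 451 (4.73%) lower in KO. In all 989 the KO and WT libraries did not overlap, and among all genes tested every KO library lay above every WT library for 18.2% and below for 13.4%. The median change was 1.35 among the genes called higher and -1.50 among those called lower, against 0.10 over all genes tested. Of all genes tested, 5313 (55.7%) had a change above 0. A change of at least 1 was found in 350 genes called higher and 353 called lower, and a change of at least 2 in 134 and 135. The called genes were more abundant than most, with a median of 37.3 FPKM for those higher and 34.8 FPKM for those lower against 11.1 FPKM over all genes tested. Among the 500 most abundant genes, 115 were called higher and 65 lower. All WT libraries were listed at 0 for 55 genes called higher, and all KO libraries for 15 called lower. All WT libraries were under 1 FPKM for 96 genes called higher, and all KO libraries for 29 called lower. These genes passed the filter through the genotype where they were high, so their difference rests on that choice, and those named are given by their listed values without a log2 change or p between KO and WT polysomes, apart from the targeted gene Lsm14b. For Pars2, Coa3, Tfap2c, Zfp3, Hist1h4d, Klhl21, Ccl2, Pls3, Psmd13, Wee1 and Slc39a1, only 1 library of the lower genotype reached 1 FPKM. They too passed the filter through the other genotype, so their log2 changes and p-values carry the same limit. The shares of a gene list called below are to be read against the 5.64% higher and 4.73% lower of all genes. Counts at an unadjusted p under 0.05 by limma are to be read against 2505 of 9536 genes (26.3%), both directions together.

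The calls depended on which libraries were used. Without KO replicate 1, 2 or 3, the count called fell to 533, 360 and 317 genes, and it was 745 to 784 without a WT library. Without KO replicate 2 or 3, fewer genes were called higher (151 and 129) than lower (209 and 188). In all 6 such fits 113 genes kept a call of higher and 144 a call of lower. Genes that did not are marked as they are named, but Cetn2, Sdhaf4 and Stra13 are given without such a mark. Genes given by their listed values alone carry no such mark either. Among these, Zfp869 was called in 5 of the 6 fits and Ccr3 in 0. Exons of Actg1, Arpc4, Atp5a1, C86187, Cct6a, Cct7, Cd9, Cdc25b, Cenpt, Cnot7, Coa3, Ddx5, Dnajc30, Eef1a1, Fam174b, Fbxo3, Fbxw16, Fbxw4, Gnas, H2afx, Hist1h1e, Il10rb, Klhl21, Mrps6, Nlrp9b, Pdha1, Pfdn4, Pkm, Plk1, Pnpla3, Psmd13, Sall4, Sdhaf4, Slc35b3, Spry1, Tob2, Tuba1b, Tubb4b, Ube2c, Zfp524 and Zfp784 overlap another annotated gene, and whether the counting used strand is not given in the sources used here, so reads of such pairs may be shared. FPKM is a share of a library, so fewer oocytes in a lysate and less RNA per oocyte cannot be told apart, and neither can more mRNA and more ribosomes per mRNA.

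**Figure D1:**
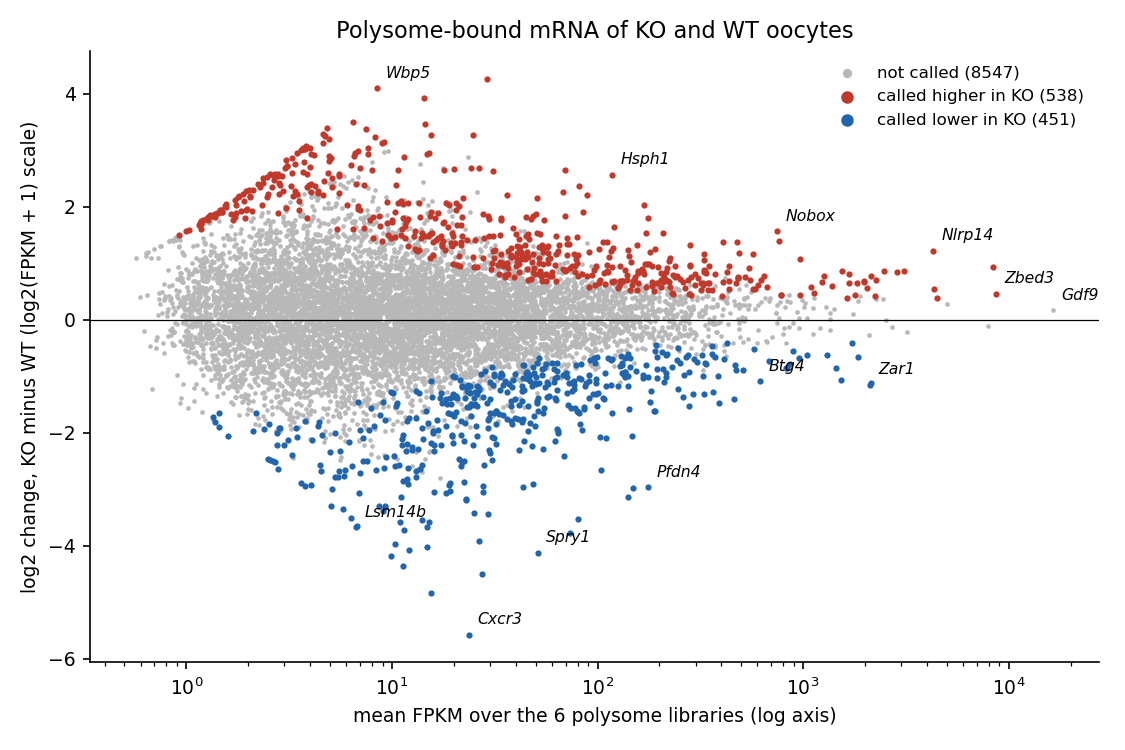
Log2 change between KO and WT polysomes (vertical axis, log2(FPKM + 1) scale) against mean FPKM over the 6 libraries (horizontal log axis) for the 9536 genes tested, with the 538 genes called higher in red, the 451 called lower in blue and the 8547 not called in grey. Called genes span the whole range of levels, and the straight upper and lower edges at low FPKM are genes listed at or near 0 in 1 genotype.

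Lsm14b itself, on chromosome 2 (GRCm38, 180024987 to 180035465, plus strand), stood at 0.260, 0 and 0.0876 FPKM in the KO libraries and 11.3, 15.3 and 13.2 FPKM in the WT libraries. The KO libraries lay far below the WT libraries (log2 change -3.67, SE 0.42, limma adjusted p = 0.00271), and the exact two-sided permutation test gave p = 0.1, the smallest that 3 against 3 libraries allow. The call held in each of the 6 fits that left out 1 library. Lsm14b passed the filter on low values through the WT libraries alone, so its limma p carries the limit given above. Lsm14a, the paralog expressed in many tissues, stood at 32.5, 38.4 and 70.9 FPKM in the KO libraries and 42.4, 50.1 and 51.3 FPKM in the WT libraries. Its libraries overlapped, with the highest and the lowest of the 6 both from KO (log2 change -0.10, SE 0.29, limma adjusted p = 0.864), and the exact permutation test gave p = 1.0.

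The most abundant transcripts called in polysomes included oocyte-specific ones on both sides. Nlrp14, an oocyte member of the NLR protein family needed by the early embryo, stood at 5396, 6350.4 and 6296 FPKM in the KO libraries and 2565, 2679.9 and 2475 FPKM in the WT libraries. All KO libraries lay above all WT libraries (log2 change 1.22, SE 0.09, limma adjusted p = 0.000437). Dppa3, also known as Stella, protects methylation of the maternal genome, and its transcript stood at 3935, 3762 and 4329 FPKM in the KO libraries and 2468, 2099 and 2068 FPKM in the WT libraries. It was again higher in each KO library (log2 change 0.86, SE 0.10, limma adjusted p = 0.00277). Zbed3, a partner of the subcortical maternal complex, reached 10200.3, 9208 and 10582 FPKM in the KO libraries and 7882, 7509 and 6476 FPKM in the WT libraries, a small gap without overlap (log2 change 0.46, SE 0.09, limma adjusted p = 0.02). Rn45s, the rRNA precursor with the values given above, was called higher as well (log2 change 0.93, SE 0.17, limma adjusted p = 0.0132). Bpgm, which makes 2,3-bisphosphoglycerate, was higher by 0.38 (limma adjusted p = 0.0332), and Ldhb, a subunit of lactate dehydrogenase, by 0.54 (limma adjusted p = 0.0135). After quantile normalization both of these last changes turned to the other sign, -0.12 for Bpgm and -0.03 for Ldhb. Once KO replicate 1, 2 or 3 was left out, the calls of Zbed3 and Rn45s ended (limma adjusted p up to 0.102). Leaving out KO replicate 2 ended the call of Ldhb (limma adjusted p up to 0.0616). Bpgm was called in 1 of the 6 fits that left out 1 library, and KO replicates 1, 2 and 3 and WT replicates 1 and 3 were among the libraries whose absence ended the call (limma adjusted p up to 0.141).

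Among the abundant transcripts that fell, Bcl2l10, a BCL2-family protein of the oocyte, stood at 1314, 1299.5 and 1437 FPKM in the KO libraries and 3212, 2974 and 2591 FPKM in the WT libraries. Each KO library lay below each WT library (log2 change -1.11, SE 0.10, limma adjusted p = 0.00135). Tcl1, a coactivator of AKT that the cleavage-stage embryo needs, stood at 1331, 1445 and 1538 FPKM in the KO libraries and 2271, 2122 and 2404 FPKM in the WT libraries, with no overlap (log2 change -0.66, SE 0.09, limma adjusted p = 0.00528). Zar1, which binds maternal mRNAs and is needed to store them, stood at 2022, 776 and 1341 FPKM in the KO libraries and 2747, 3142 and 2661 FPKM in the WT libraries. The KO libraries were spread over a wider range than the WT libraries and all lay below them (log2 change -1.15, SE 0.29, limma adjusted p = 0.0387). AU022751 and C86187, which are known here by their symbols only, were lower by log2 changes of -1.06 (limma adjusted p = 0.00296) and -0.86 (limma adjusted p = 0.00297), and D6Ertd527e by -0.42 (limma adjusted p = 0.0186). Zar1 and D6Ertd527e were called in 1 to 2 of the 6 fits that left out 1 library, and KO replicates 2 and 3 and WT replicates 1, 2 and 3 were among the libraries whose absence ended a call (limma adjusted p up to 0.117).

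**Figure D2:**
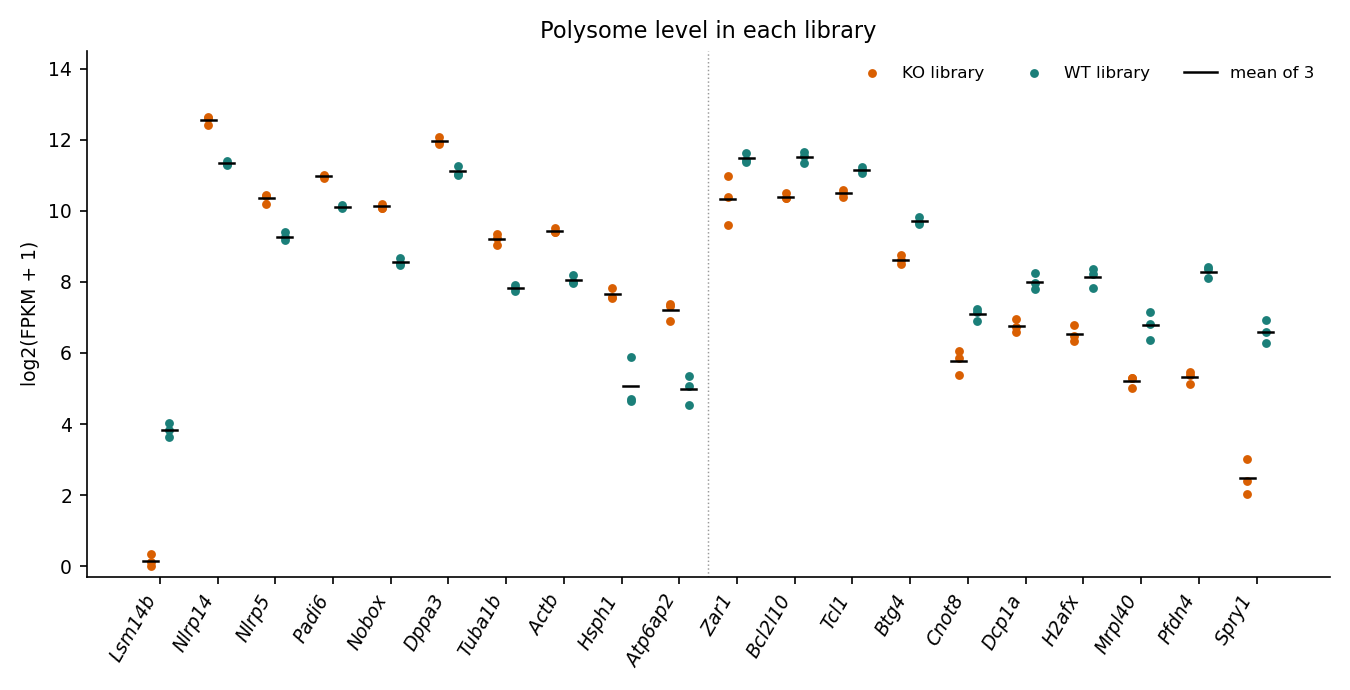
Level of 20 genes as log2(FPKM + 1) in each polysome library, with KO libraries in orange, WT libraries in green and a bar at the mean of 3. Lsm14b is at the left, 9 genes called higher in KO follow, and to the right of the dotted line are 10 genes called lower. In none of the 20 do the KO and WT points overlap, which holds for all 989 genes called.

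The last bases of these transcripts hold the elements that control the poly(A) tail in oocytes. The cytoplasmic polyadenylation element (CPE), which CPEB proteins bind near the polyadenylation signal, was searched as TTTTAT or TTTTAAT on the transcript strand in the last 100 bases, and overlap with other motifs was allowed. The search covered the 6905 tested coding genes whose longest GENCODE transcript (GRCm38) has AATAAA or ATTAAA in its last 40 bases. The element was found in 96 of 321 genes called lower (29.9%), in 69 of 409 called higher (16.9%) and in 20.6% of all 6905. The motif was chosen after results were seen, so these shares are a description, and a match is not a site shown to be used. The windows below are shown because they belong to the most abundant genes called lower that hold the element, with it in capitals, and those of Zbed3 and Bpgm follow as genes called higher. They lie in the 3' UTR on GRCm38.
Bcl2l10, chr9:75351579-75351608, plus strand: cccttaatacatTTTTAATaacttcaaatt
Tcl1, chr12:105216797-105216826, minus strand: gaatgtgtgggaTTTTATgtggttctattt
D6Ertd527e, chr6:87112941-87112970, plus strand: tcctgtacatttTTTTATtattgtttgttt
AU022751, chrX:6081267-6081296, minus strand: tttgggtggggtTTTTATtccaagttgctc
Obox2, chr7:15398434-15398463, plus strand: cataccactgtgTTTTATgtagtgcgattg
Zbed3, chr13:95337805-95337834, plus strand: ctccttttttttTTTTAATaaacttttatt
Bpgm, chr6:34505572-34505601, plus strand: tacttgtatccaTTTTATaataaaacgggc
The element thus occurs on both sides of the comparison, more often among the genes called lower. Poly(A) tail length was not measured, and whether it affected how well an mRNA was amplified into these libraries was not tested. Within 5 classes of transcript length of like size, its share among genes called lower was 25.6%, 38.8%, 29.6%, 34.5% and 20.7% from the shortest to the longest, and among genes called higher 5.97%, 20.6%, 16.4%, 15.0% and 27.3%. The share was higher among the genes called lower in the 4 shorter classes and lower in the longest, and the 2 longest classes held only 29 genes called lower each. The median change was 0.02 over the 1419 genes with the element and 0.13 over the 5486 without it. An AU-rich element, TATTTAT, was found in 10.6% of genes called lower, 4.40% of those called higher and 4.69% of all. The Pumilio-binding motif TGTANATA was found in 4.05%, 6.36% and 5.56%. The genes called lower had shorter 3' UTRs, with a median of 779 bases against 1247 for those called higher and 1117 for all.

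Transcript length also went with the direction of change. Of 9486 genes with a length, split into 10 classes, the class with the shortest transcripts (192 to 1352 bases) had a median change of -0.17, with 3.48% called higher and 10.5% lower. In the class with the longest transcripts (6708 bases and more) the median was 0.18, with 4.53% called higher and 1.79% lower. The medians of the classes in between ran from -0.01 to 0.20, and Spearman's rho of length and change across genes was 0.12. The signs of the medians in the shortest and the longest class were the same under each alternative tried. Medians of gene families are therefore set below beside that of all genes in the length class of the family.

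**Figure D3:**
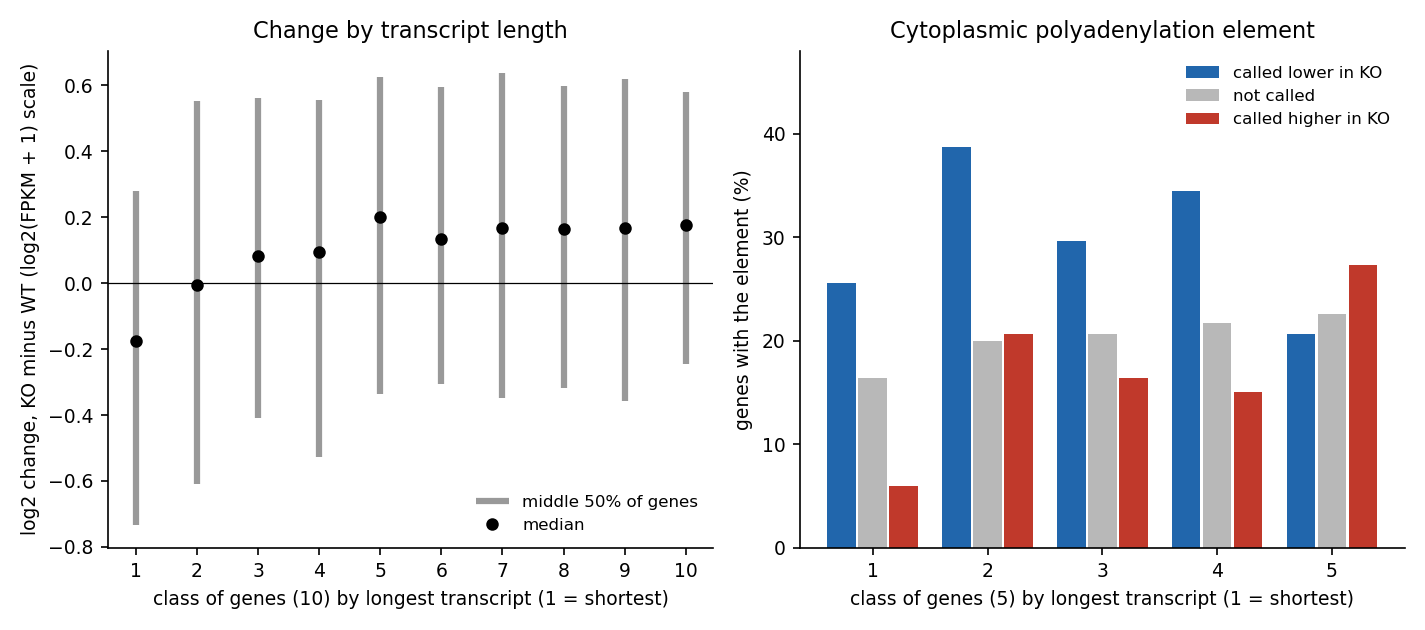
Left, the median (point) and middle 50% (bar) of the log2 change between KO and WT polysomes in 10 classes of genes by longest transcript, with the shortest class alone clearly below 0 at -0.17. Right, the percentage of genes with a cytoplasmic polyadenylation element in their last 100 bases, in 5 classes of transcript length, for genes called lower (blue), not called (grey) and called higher (red), with blue above red in all but the longest class.

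Genes for proteins that store mRNA or control its translation, a list that holds Lsm14b and activators as well as repressors, were called in both directions. Of 29 such genes 24 were tested, 3 (12.5%) were called higher and 5 (20.8%) lower with Lsm14b itself among them, and the median change was 0.23 against 0.20 for genes of like length. Patl2, an RNA-binding partner of silenced oocyte mRNAs, stood at 25.5, 27.6 and 21.6 FPKM in the KO libraries and 4.63, 7.08 and 6.23 FPKM in the WT libraries. The KO libraries were all higher (log2 change 1.90, SE 0.31, limma adjusted p = 0.00916). Pabpc1l, the embryonic poly(A)-binding protein, rose by 0.59 (limma adjusted p = 0.0318) and Cpeb1, which binds the element printed above, by 0.45 (limma adjusted p = 0.0328). Dazl, an activator of translation in germ cells, stood at 18.3, 10.8 and 19.2 FPKM in the KO libraries and 48.2, 92.0 and 40.3 FPKM in the WT libraries. It was lower in each KO library (log2 change -1.79, SE 0.36, limma adjusted p = 0.0174). Cpeb4 fell by 1.95 (limma adjusted p = 0.0302), and Zar1l, the paralog of Zar1, by 0.63 (limma adjusted p = 0.0141). The call of Patl2 was lost without KO replicate 2 (limma adjusted p up to 0.0555). Without KO replicate 2 or 3, the calls of Dazl and Zar1l were lost (limma adjusted p up to 0.0697). Cpeb1, Pabpc1l and Cpeb4 were called in 1 to 2 of the 6 fits that left out 1 library, and KO replicates 1, 2 and 3 and WT replicates 1, 2 and 3 were among the libraries whose absence ended a call (limma adjusted p up to 0.142).

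Genes of the machinery that shortens poly(A) tails and removes caps were called in both directions. Of 28 tested 4 (14.3%) were called lower and 2 (7.14%) higher, and the median change was -0.13, against 0.13 for all genes of like length. Btg4, which brings the CCR4-NOT deadenylase to maternal mRNAs as the oocyte matures, stood at 394, 358 and 432 FPKM in the KO libraries and 906, 818 and 790.04 FPKM in the WT libraries. The KO libraries lay below all WT libraries (log2 change -1.09, SE 0.11, limma adjusted p = 0.00185). Cnot8, a catalytic subunit of that deadenylase, stood at 57.3, 65.9 and 40.8 FPKM in the KO libraries and 119, 149.7 and 140.3 FPKM in the WT libraries, with no overlap (log2 change -1.32, SE 0.21, limma adjusted p = 0.00768). Dcp1a, a cofactor of the decapping enzyme, stood at 104, 122 and 95.9 FPKM in the KO libraries and 222, 301 and 251 FPKM in the WT libraries and fell likewise (log2 change -1.25, SE 0.16, limma adjusted p = 0.00368). Cnot7, the other catalytic subunit of this kind, fell by 0.99 (limma adjusted p = 0.0174). The genes called higher were both Tob adaptors of the same deadenylase, Tob1 with 56.3, 79.049 and 84.4 FPKM in KO and 12.4, 27.0 and 24.992 FPKM in WT (log2 change 1.78, SE 0.32, limma adjusted p = 0.0121), and Tob2 at a change of 0.46 (limma adjusted p = 0.0405). With KO replicate 2 left out, the call of Cnot7 ended (limma adjusted p up to 0.056). The call of Tob1 did not hold without KO replicate 2 or 3 (limma adjusted p up to 0.0615). Tob2 was called in 0 of the 6 fits that left out 1 library, and KO replicates 1, 2 and 3 and WT replicates 1, 2 and 3 were among the libraries whose absence ended the call (limma adjusted p up to 0.142).

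Some genes of the maternal complexes and of the Nlrp family were called higher in KO polysomes. The subcortical maternal complex is a protein assembly under the egg membrane that cleavage requires. All 8 of its genes had a change above 0, against 55.7% of all genes tested. Of the 8, 4 were called higher, Nlrp5, Padi6, Tle6 and Zbed3. The median of the 8 was 0.53 against 0.08 for genes of like length. In the RNP pool the median change of this list was 0.82. Nlrp5, also known as Mater, stood at 1177, 1361 and 1384 FPKM in the KO libraries and 573, 609 and 677 FPKM in the WT libraries. Each KO library lay above each WT library (log2 change 1.08, SE 0.11, limma adjusted p = 0.00182). Padi6 stood at 2039.7, 2003 and 1955 FPKM in the KO libraries and 1069, 1092 and 1137 FPKM in the WT libraries, about as tight within each group (log2 change 0.86, SE 0.08, limma adjusted p = 0.00145). Tle6 rose by 0.59 (limma adjusted p = 0.0215). The related Nlrp4, Nlrp9 and Nlrp14 genes, which lie in clusters of paralogs, were all tested and all 9 had a change above 0, 5 of them called higher, with a median of 0.86 against 0.13 for genes of like length. Their median change in the RNP pool was 1.02, so a rise was not particular to polysomes. Nlrp9b stood at 671, 832 and 867 FPKM in the KO libraries and 359, 399.8 and 302 FPKM in the WT libraries (log2 change 1.16, SE 0.14, limma adjusted p = 0.00342), and Nlrp4b rose by 0.95 (limma adjusted p = 0.0223). Reads of such paralogs can be shared, so their single values are uncertain and their signs may not be independent. Tle6 and Nlrp4b were called in 1 to 3 of the 6 fits that left out 1 library, and KO replicates 1, 2 and 3 and WT replicates 1, 2 and 3 were among the libraries whose absence ended a call (limma adjusted p up to 0.1).

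Genes of the egg coat and surface were called in 1 direction. Of 6 tested genes 4 were called higher by limma and none was lower, at an unadjusted p under 0.05 either, and the median change was 0.61 against -0.01 for genes of like length. Zp3, a glycoprotein of the zona pellucida, stood at 2614, 1763 and 1736 FPKM in the KO libraries and 1148, 1243 and 1474 FPKM in the WT libraries. Its KO libraries were higher, with replicate 1 apart from the other 2 (log2 change 0.64, SE 0.17, limma adjusted p = 0.0457). Zp2, its partner in sperm binding, stood at 96.2, 71.5 and 78.9 FPKM in the KO libraries and 35.2, 39.1 and 50.2 FPKM in the WT libraries (log2 change 0.97, SE 0.21, limma adjusted p = 0.0219). Cd9, which sperm fusion requires, stood at 168, 235 and 185 FPKM in the KO libraries and 108, 92.1 and 69.6 FPKM in the WT libraries, without overlap (log2 change 1.12, SE 0.20, limma adjusted p = 0.0121). Astl, the protease that cleaves ZP2 after fertilization, was higher by 0.58 (limma adjusted p = 0.0105). Removing KO replicate 2 or 3 ended the call of Cd9 (limma adjusted p up to 0.0572). Once KO replicate 3 was left out, the call of Astl ended (limma adjusted p up to 0.0566). Zp2 and Zp3 were called in 1 of the 6 fits that left out 1 library, and KO replicates 1, 2 and 3 and WT replicates 1 and 2 were among the libraries whose absence ended a call (limma adjusted p up to 0.111).

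Among 10 tested transcription factors of oocyte growth 4 were called higher by limma and none lower, also at an unadjusted p under 0.05, with a median change of 0.52 against 0.08 for genes of like length. Nobox, which activates a large share of the oocyte's own genes, stood at 1084, 1084 and 1173 FPKM in the KO libraries and 403, 353 and 371 FPKM in the WT libraries. The lowest KO library lay far above the highest WT library (log2 change 1.57, SE 0.10, limma adjusted p = 0.000334). Trp63, which guards the oocyte genome, was higher by 1.65 (limma adjusted p = 0.025), Lhx8, a regulator of primordial follicles, by 0.66 (limma adjusted p = 0.0338), and Sall4 by 0.65 (limma adjusted p = 0.0263). A list of 9 genes for exchange with granulosa cells, which holds ligands as well as the receptor Kit and the connexin Gja4, had a median of -0.14 against -0.01 for genes of like length, and its ligand Gdf9 differed by 0.17 (limma adjusted p = 0.211). In that list Gja4, the connexin of oocyte gap junctions, fell from 1194, 1102 and 991 FPKM in WT to 641, 598 and 656 FPKM in KO (log2 change -0.79, SE 0.10, limma adjusted p = 0.00386), and Kit, the receptor for granulosa Kit ligand, rose by 0.69 (limma adjusted p = 0.0387). Leaving out KO replicate 1, 2 or 3 ended the call of Trp63 (limma adjusted p up to 0.0989). Lhx8, Sall4 and Kit were called in 1 to 2 of the 6 fits that left out 1 library, and KO replicates 1, 2 and 3 and WT replicates 1, 2 and 3 were among the libraries whose absence ended a call (limma adjusted p up to 0.149).

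Members of smaller oocyte families were called in different directions. Obox2, a homeobox gene of the oocyte, stood at 657, 742 and 805 FPKM in the KO libraries and 1208, 1116 and 1192 FPKM in the WT libraries, lower in each KO library (log2 change -0.68, SE 0.10, limma adjusted p = 0.007). Obox1 followed at -0.55 (limma adjusted p = 0.0328), but the exons of both overlap in the annotation and the window printed for Obox2 occurs unchanged in Obox1, so their reads cannot be told apart. Of 6 Tcl1-family genes only Tcl1 was called. A change below 0 was found in 5 of them, whereas 55.7% of all genes tested had a change above 0. The oogenesin Oog2 was higher, at 643, 686 and 728 FPKM in the KO libraries and 445, 417 and 404 FPKM in the WT libraries (log2 change 0.70, SE 0.10, limma adjusted p = 0.00565), as was Oog4 by 0.47 (limma adjusted p = 0.0494). Oas1d, an oocyte relative of the antiviral oligoadenylate synthetases, stood at 2515, 2390.3 and 2423 FPKM in the KO libraries and 1626, 1789 and 1556 FPKM in the WT libraries (log2 change 0.56, SE 0.09, limma adjusted p = 0.00691), and Oas1e was higher by 0.42 (limma adjusted p = 0.0134). The call of Oas1e was lost without KO replicate 2 or 3 (limma adjusted p up to 0.065). Oog4 and Obox1 were called in 0 to 1 of the 6 fits that left out 1 library, and KO replicates 1, 2 and 3 and WT replicates 1, 2 and 3 were among the libraries whose absence ended a call (limma adjusted p up to 0.186).

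Regulators of meiotic arrest and resumption were called in both directions. Among 16 tested genes of cAMP-dependent arrest and the Mos-MAPK pathway, 2 were called higher and 2 lower (12.5% each), with a median of 0.28 against 0.13 for genes of like length. Mos, the kinase that keeps the egg in metaphase II, stood at 515, 610.04 and 639.8 FPKM in the KO libraries and 1297, 859 and 1069 FPKM in the WT libraries. The KO libraries all lay below the WT libraries (log2 change -0.85, SE 0.16, limma adjusted p = 0.013). Gpr3, the receptor that holds the GV stage by raising cAMP, fell from 48.8, 38.9 and 67.1 FPKM in WT to 25.2, 27.4 and 15.8 FPKM in KO (log2 change -1.14, SE 0.29, limma adjusted p = 0.0427). Gnas, the stimulatory G protein that GPR3 signals through, was higher, at 209, 211 and 167 FPKM in the KO libraries and 108, 89.7 and 89.5 FPKM in the WT libraries (log2 change 1.02, SE 0.16, limma adjusted p = 0.00691). Prkar1a, a regulatory subunit of protein kinase A, rose by 0.77 (limma adjusted p = 0.0493). Without KO replicate 2, the call of Mos was lost (limma adjusted p up to 0.0555). Gpr3 and Prkar1a were called in 1 of the 6 fits that left out 1 library, and KO replicates 1, 2 and 3 and WT replicates 1, 2 and 3 were among the libraries whose absence ended a call (limma adjusted p up to 0.176).

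Of 21 tested genes that act on the cell cycle kinase CDK1, 4 were called higher and none lower by limma (3 lower at an unadjusted p under 0.05), with a median of 0.22 against 0.20 for genes of like length. Wee1, which inhibits CDK1, stood at 6.75, 10.8 and 6.57 FPKM in the KO libraries and 0, 0.957 and 2.65 FPKM in the WT libraries (log2 change 2.2005, SE 0.56, limma adjusted p = 0.0422), and Cdc25b, the phosphatase that reverses this, at 107, 103 and 128 FPKM in the KO libraries and 70.8, 72.5 and 53.0 FPKM in the WT libraries (log2 change 0.78, SE 0.18, limma adjusted p = 0.0308). Both, with opposite action on CDK1, were thus higher in each KO library. Plk1 rose by 0.64 (limma adjusted p = 0.0145) and the PP2A scaffold Ppp2r1a by 0.81 (limma adjusted p = 0.0359). Of 20 tested genes of the anaphase-promoting complex and its regulators 1 was called, Anapc16, which fell from 217, 175 and 162 FPKM to 116, 108 and 83.6 FPKM (log2 change -0.84, SE 0.18, limma adjusted p = 0.0221). Ube2c, its conjugating enzyme and the highest of that list, stood at 135, 139.8 and 162 FPKM in the KO libraries and 134, 161 and 139 FPKM in the WT libraries and overlapped (log2 change 0.01, SE 0.14, limma adjusted p = 0.978). With KO replicate 1, 2 or 3 left out, the call of Plk1 ended (limma adjusted p up to 0.0576). Wee1, Cdc25b, Ppp2r1a and Anapc16 were called in 0 to 3 of the 6 fits that left out 1 library, and KO replicates 1, 2 and 3 and WT replicates 1, 2 and 3 were among the libraries whose absence ended a call (limma adjusted p up to 0.152).

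Genes of the spindle assembly checkpoint were called in 1 direction and those of the centromere in both. Of 16 checkpoint genes 4 were called higher and none lower by limma (1 lower at an unadjusted p under 0.05), with a median of 0.24 against 0.20 for genes of like length. Zw10, which recruits dynein and checkpoint proteins to kinetochores, stood at 41.5, 38.6 and 48.9 FPKM in the KO libraries and 22.3, 17.3 and 19.5 FPKM in the WT libraries (log2 change 1.09, SE 0.22, limma adjusted p = 0.0198). Bub3 rose by 0.61 (limma adjusted p = 0.0352), and Incenp and Birc5, of the chromosomal passenger complex, by 0.81 (limma adjusted p = 0.0477) and 0.39 (limma adjusted p = 0.0354). Of 29 centromere and kinetochore genes 3 (10.3%) were called lower and 1 (3.45%) higher, with a median of -0.02 against 0.20 for genes of like length. Mis18a, needed to load the centromeric histone, stood at 41.6, 62.0 and 46.5 FPKM in the KO libraries and 158, 113 and 125 FPKM in the WT libraries, with the WT libraries all above (log2 change -1.39, SE 0.21, limma adjusted p = 0.00619). Cenph, of the inner kinetochore, stood at 38.9, 37.8 and 34.7 FPKM in the KO libraries and 86.8, 94.4 and 87.3 FPKM in the WT libraries (log2 change -1.25, SE 0.16, limma adjusted p = 0.00397). Cenpa, the centromeric histone itself, stood at 12.3, 12.1 and 15.9 FPKM in the KO libraries and 35.2, 32.1 and 43.4 FPKM in the WT libraries and was lower in each KO library (log2 change -1.39, SE 0.25, limma adjusted p = 0.0126). Cenpt was higher by 1.95 (limma adjusted p = 0.0296). The cohesin acetyltransferases went apart, with Esco2 at 249, 277 and 261 FPKM in the KO libraries and 138, 150.3 and 152 FPKM in the WT libraries (log2 change 0.83, SE 0.12, limma adjusted p = 0.00556) and with Esco1, which fell by 1.61 on the log2 scale (limma adjusted p = 0.0397), among 15 tested cohesin genes of which no other was called. The call of Zw10 did not hold without KO replicate 1, 2 or 3 (limma adjusted p up to 0.095). Removing KO replicate 2 ended the call of Cenpa (limma adjusted p up to 0.0555). Bub3, Incenp, Birc5, Cenpt and Esco1 were called in 0 to 1 of the 6 fits that left out 1 library, and KO replicates 1, 2 and 3 and WT replicates 1, 2 and 3 were among the libraries whose absence ended a call (limma adjusted p up to 0.151).

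Tubulin and actin genes were called higher more often than lower. Of 16 tested tubulin genes 6 were called higher and none lower by limma (1 lower at an unadjusted p under 0.05), with a median of 0.58 against -0.01 for genes of like length. Tuba1b stood at 521, 597 and 649.6 FPKM in the KO libraries and 228, 214 and 238 FPKM in the WT libraries. All KO libraries lay above all WT libraries (log2 change 1.37, SE 0.12, limma adjusted p = 0.00111). Tubb2a, the highest of the called tubulins, stood at 3096, 3026 and 3425 FPKM in the KO libraries and 1759, 1735 and 1764 FPKM in the WT libraries (log2 change 0.86, SE 0.08, limma adjusted p = 0.0016), whereas Tubb4b, another beta-tubulin of similar level, stood at 2368, 2403 and 2804 FPKM in the KO libraries and 2725, 2517 and 2319.8 FPKM in the WT libraries and overlapped (log2 change 0.00, SE 0.10, limma adjusted p = 0.995). Of actin genes and regulators of its assembly 21 were tested, 4 (19.0%) were called higher and 2 (9.52%) lower, with a median of 0.41 against 0.08 for genes of like length. Actb, beta-actin, stood at 723, 675 and 671 FPKM in the KO libraries and 294, 253 and 251 FPKM in the WT libraries, without overlap (log2 change 1.37, SE 0.11, limma adjusted p = 0.000686). Actg1 rose by 1.2030 (limma adjusted p = 0.00885), and the actin-severing Cfl1 and the monomer-binding Pfn1 rose by 0.67 (limma adjusted p = 0.00608) and 0.65 (limma adjusted p = 0.0141). Arpc4, a subunit of the branching complex Arp2/3, fell from 65.0, 67.4 and 73.1 FPKM to 19.0, 26.1 and 24.4 FPKM (log2 change -1.53, SE 0.20, limma adjusted p = 0.00415), and Tmsb4x, which holds actin monomers, from 15.5, 12.2 and 6.89 FPKM to 0, 1.95 and 1.67 FPKM (log2 change -2.59, SE 0.56, limma adjusted p = 0.0238). None of 22 tested kinesins was called by limma, and 5 had an unadjusted p under 0.05, against 26.3% of all genes tested. Once KO replicate 3 was left out, the call of Pfn1 ended (limma adjusted p up to 0.0616). Tmsb4x was called in 1 of the 6 fits that left out 1 library, and KO replicates 1, 2 and 3 and WT replicates 1 and 2 were among the libraries whose absence ended the call (limma adjusted p up to 0.0667).

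Ribosomal proteins of the cytosol and of the mitochondrion are encoded by separate nuclear genes. Of 51 tested genes of the cytosolic set none was called by limma. An unadjusted p under 0.05 was found in 5 of them, against 26.3% of all genes tested. The median change was 0.19 against -0.17 for genes of like length. Rpl41, the highest, stood at 1074, 775 and 786 FPKM in the KO libraries and 642, 713 and 895 FPKM in the WT libraries, a range that overlapped (log2 change 0.22, SE 0.17, limma adjusted p = 0.434). Of 71 tested genes for mitochondrial ribosomal proteins 14 (19.7%) were called lower and 1 (1.41%) higher, with a median of -0.31 against -0.01 for genes of like length. Mrpl40, of the large subunit, stood at 31.6, 38.6 and 38.6 FPKM in the KO libraries and 142, 81.8 and 111 FPKM in the WT libraries. Its KO libraries lay below each WT library (log2 change -1.57, SE 0.23, limma adjusted p = 0.00565). Mrps31 fell by 1.53 (limma adjusted p = 0.0308) and Mrps18a fell by 1.70 (limma adjusted p = 0.0471). The exception was Mrps6, at 263, 288 and 297 FPKM in the KO libraries and 163, 175 and 118 FPKM in the WT libraries (log2 change 0.91, SE 0.16, limma adjusted p = 0.0124). The summed level of the list was 2665 to 2748 FPKM in KO and 3141 to 3874 FPKM in WT. The mitochondrial list kept a median below that of all genes under each alternative tried, by 0.29 to 0.53. Leaving out KO replicate 2 or 3 ended the call of Mrps6 (limma adjusted p up to 0.0601). Mrps31 and Mrps18a were called in 1 of the 6 fits that left out 1 library, and KO replicates 1, 2 and 3 and WT replicates 1, 2 and 3 were among the libraries whose absence ended a call (limma adjusted p up to 0.144).

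Translation factors and tRNA synthetases showed a few single changes. Of 54 tested factors 5 (9.26%) were called higher and 2 (3.70%) lower, with a median of 0.16 against 0.09 for genes of like length. Eef1a1, the factor that brings tRNA to the ribosome, stood at 264, 255 and 259 FPKM in the KO libraries and 130.1, 155 and 123 FPKM in the WT libraries (log2 change 0.93, SE 0.13, limma adjusted p = 0.00528). The initiation factors Eif3l, Eif4h, Eif4e and Eif4a1 rose by 1.01, 0.75, 0.70 and 0.60 (limma adjusted p = 0.0149, 0.0152, 0.0366 and 0.0184). Eef1e1, a scaffold of the synthetase complex, stood at 19.1, 22.8 and 12.4 FPKM in the KO libraries and 93.8, 59.5 and 66.9 FPKM in the WT libraries, below WT in each KO library (log2 change -1.97, SE 0.28, limma adjusted p = 0.00544). Eif1, which selects the start codon, fell by 0.62 (limma adjusted p = 0.0389). Of 25 tested tRNA synthetases 1 was called. Their median was 0.40 against 0.20 for genes of like length, and 19 had a change above 0, against 55.7% of all genes tested. The gene called was mitochondrial Pars2, which went the other way. It stood at 0, 2.50 and 0 FPKM in the KO libraries and 10.4, 18.5 and 3.87 FPKM in the WT libraries (log2 change -2.76, SE 0.70, limma adjusted p = 0.0409). Pars2 passed the filter on low values through the WT libraries. The call of Eif4h was lost without KO replicate 2 or 3 (limma adjusted p up to 0.0756). Without KO replicate 1, 2 or 3, the calls of Eif3l and Eif4a1 were lost (limma adjusted p up to 0.0842). Eif4e, Eif1 and Pars2 were called in 1 to 2 of the 6 fits that left out 1 library, and KO replicates 1, 2 and 3 and WT replicates 1, 2 and 3 were among the libraries whose absence ended a call (limma adjusted p up to 0.145).

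Genes of glycolysis and the citric acid cycle were called in 1 direction. Of 33 tested 7 were called higher by limma and none lower, also at an unadjusted p under 0.05, with a median of 0.52 against 0.09 for genes of like length. Mdh1, cytosolic malate dehydrogenase, stood at 43.9, 48.1 and 36.9 FPKM in the KO libraries and 14.1, 14.47 and 27.9 FPKM in the WT libraries (log2 change 1.21, SE 0.30, limma adjusted p = 0.0394), and Pdha1, of the mitochondrial pyruvate dehydrogenase, at 79.5, 81.3 and 95.6 FPKM in the KO libraries and 58.5, 23.4 and 38.9 FPKM in the WT libraries (log2 change 1.16, SE 0.30, limma adjusted p = 0.0468). Idh3a, of the citric acid cycle, rose by 0.86 (limma adjusted p = 0.0299), and Dlst, Cs and Pkm rose as well, by 0.80, 0.69 and 0.52 (limma adjusted p = 0.0132, 0.0201 and 0.0184). For the respiratory chain and ATP synthase, 1 of 75 tested genes was called higher and none lower by limma (6 lower at an unadjusted p under 0.05), and the median was -0.03 against -0.17 for genes of like length. That gene was Atp5a1, of ATP synthase, at 180.1, 202 and 177 FPKM in the KO libraries and 119, 95.1 and 132 FPKM in the WT libraries (log2 change 0.70, SE 0.16, limma adjusted p = 0.0288). With KO replicate 2 or 3 left out, the calls of Dlst, Cs and Pkm ended (limma adjusted p up to 0.0897). Idh3a, Mdh1, Atp5a1 and Pdha1 were called in 1 of the 6 fits that left out 1 library, and KO replicates 1, 2 and 3 and WT replicates 1, 2 and 3 were among the libraries whose absence ended a call (limma adjusted p up to 0.159).

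Chaperones fold new proteins. Of 69 tested chaperone genes 12 (17.4%) were called higher and 5 (7.25%) lower, with a median of 0.26 against 0.09 for genes of like length. Hsph1, a nucleotide exchange factor for HSP70, stood at 190.4, 226 and 185 FPKM in the KO libraries and 24.1, 57.8 and 25.1 FPKM in the WT libraries. The KO libraries lay far above all WT libraries (log2 change 2.57, SE 0.31, limma adjusted p = 0.00318). Hsp90aa1 stood at 676, 741 and 713 FPKM in the KO libraries and 393, 400.1 and 338 FPKM in the WT libraries (log2 change 0.91, SE 0.11, limma adjusted p = 0.00296), and Hspa5, the HSP70 of the endoplasmic reticulum, rose by 1.54 (limma adjusted p = 0.000686). Of the chaperonin subunits, Cct3, Cct7, Cct4 and Cct6a rose by 1.31, 1.82, 1.94 and 2.45 (limma adjusted p = 0.00782, 0.0181, 0.0251 and 0.0497). Pfdn4, a subunit of prefoldin, which hands actin and tubulin to that chaperonin, stood at 40.8, 42.9 and 33.9 FPKM in the KO libraries and 326, 339.8 and 274 FPKM in the WT libraries. The WT libraries lay far above the KO libraries (log2 change -2.97, SE 0.16, limma adjusted p = 0.000265). Dnajc30 and Dnajc3, co-chaperones of HSP70, fell by 1.94 (limma adjusted p = 0.0198) and 1.07 (limma adjusted p = 0.0177). The call of Cct7 did not hold without KO replicate 1, 2 or 3 (limma adjusted p up to 0.0844). Removing KO replicate 2 or 3 ended the call of Dnajc3 (limma adjusted p up to 0.0702). Cct4, Cct6a and Dnajc30 were called in 1 to 3 of the 6 fits that left out 1 library, and KO replicates 1, 2 and 3 and WT replicates 1 and 3 were among the libraries whose absence ended a call (limma adjusted p up to 0.166).

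F-box proteins choose the substrates of cullin ubiquitin ligases. Of 67 tested F-box and cullin genes 14 were called higher (20.9% against 5.64% of all) and 1 lower, with a median of 0.50 against 0.13 for genes of like length. Fbxo38 stood at 70.6, 93.0 and 76.4 FPKM in the KO libraries and 32.7, 38.1 and 33.0 FPKM in the WT libraries (log2 change 1.18, SE 0.19, limma adjusted p = 0.0082). Of the 14 genes, 9 were Fbxw genes with numbers from 14 to 28, paralogs of the oocyte that can share reads, whose changes ran from 0.57 for Fbxw16 to 1.08 for Fbxw27. Fbxo36 and Fbxo3 rose by 1.78 and 1.60 (limma adjusted p = 0.0398 and 0.0413), and Fbxw4 fell by 1.15 (limma adjusted p = 0.012). Of 39 tested proteasome genes 1 was called higher, Psmd13, at 4.71, 7.84 and 6.21 FPKM in the KO libraries and 0, 0.349 and 1.67 FPKM in the WT libraries (log2 change 2.22, SE 0.51, limma adjusted p = 0.0294), and 1 lower, Psmb6, at 34.3, 30.8 and 27.9 FPKM in the KO libraries and 66.9, 51.7 and 60.6 FPKM in the WT libraries (log2 change -0.92, SE 0.20, limma adjusted p = 0.0233), with a median of 0.02 against -0.01 for genes of like length. Of 53 deubiquitinases 1 was called, Usp36, by 1.50 (limma adjusted p = 0.0477). Once KO replicate 2 or 3 was left out, the call of Fbxw4 ended (limma adjusted p up to 0.056). Leaving out KO replicate 1 or 3 ended the call of Fbxw27 (limma adjusted p up to 0.0594). Fbxo36, Fbxo3, Fbxw16, Usp36, Psmd13 and Psmb6 were called in 0 to 2 of the 6 fits that left out 1 library, and KO replicates 1, 2 and 3 and WT replicates 1, 2 and 3 were among the libraries whose absence ended a call (limma adjusted p up to 0.163).

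The V-ATPase is the proton pump of lysosomes and other vesicles. Of its 18 tested genes 5 were called higher by limma and none lower, also at an unadjusted p under 0.05. A change above 0 was found in 15 of them, against 55.7% of all genes tested. The median was 0.62 against 0.09 for genes of like length. Atp6ap2, an accessory subunit, stood at 118, 158 and 165 FPKM in the KO libraries and 32.4, 22.4 and 40.1 FPKM in the WT libraries. The 3 KO libraries lay far above the WT libraries (log2 change 2.21, SE 0.24, limma adjusted p = 0.00247). Atp6ap1 rose by 1.2001 (limma adjusted p = 0.0311) and Atp6v0e2 by 1.16 (limma adjusted p = 0.0229), and the catalytic Atp6v1a and Atp6v1b2 by 1.02 and 0.86 (limma adjusted p = 0.0172 and 0.0233). Atp6v1g1, the highest of the family, stood at 526, 645 and 733 FPKM in the KO libraries and 390.4, 519 and 345 FPKM in the WT libraries and did not pass (log2 change 0.61, SE 0.18, limma adjusted p = 0.0627). The call of Atp6v1a was lost without KO replicate 2 or 3 (limma adjusted p up to 0.078). Without KO replicate 1, 2 or 3, the calls of Atp6ap1 and Atp6v0e2 were lost (limma adjusted p up to 0.131). Atp6v1b2 was called in 2 of the 6 fits that left out 1 library, and KO replicates 2 and 3 and WT replicates 2 and 3 were among the libraries whose absence ended the call (limma adjusted p up to 0.104).

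**Figure D4:**
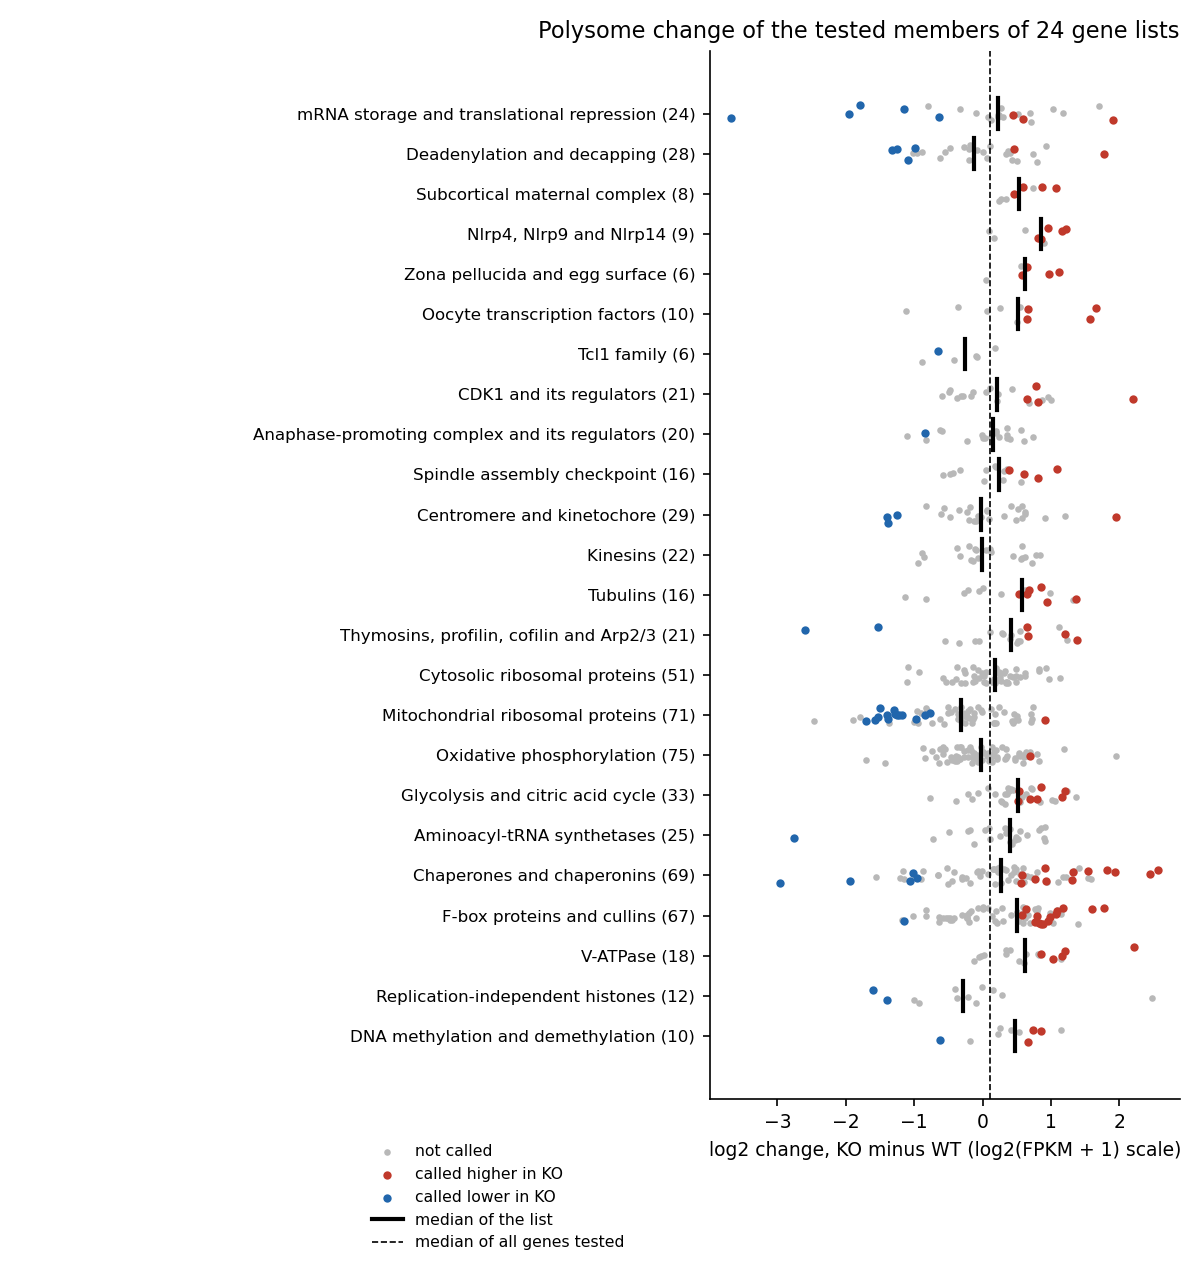
Log2 change between KO and WT polysomes (horizontal axis, log2(FPKM + 1) scale) of the tested members of 24 gene lists, 1 point a gene and the number tested in brackets, with genes called higher in red, called lower in blue and not called in grey. The short black bar is the median of a list and the dashed line the median of all genes tested, 0.10, and the bars of the mitochondrial ribosomal proteins (-0.31) and the replication-independent histones (-0.29) lie to its left while that of the Nlrp genes (0.86) lies farthest to its right.

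Histones that are made outside S phase come from single genes with poly(A) tails. Of 12 tested replication-independent histone genes 2 were called lower, H2afx and Cenpa, and none higher by limma (1 higher at an unadjusted p under 0.05), with a median of -0.29 against 0.08 for genes of like length. H2afx, the histone that marks DNA breaks, stood at 109, 87.8 and 79.7 FPKM in the KO libraries and 331, 296 and 225 FPKM in the WT libraries. Each KO library was below the WT libraries (log2 change -1.61, SE 0.19, limma adjusted p = 0.00277). H1foo, the linker histone of the oocyte, stood at 2997, 2897 and 3029 FPKM in the KO libraries and 3619.96, 3360.3 and 3340.4 FPKM in the WT libraries, without overlap, but did not pass (log2 change -0.21, SE 0.08, limma adjusted p = 0.12). Of 24 tested clustered histone genes, whose mRNAs mostly lack poly(A) tails and are near-copies of each other, 2 (8.33%) were called higher, Hist1h4d and Hist1h1e, and 1 (4.17%) lower, shares near those of all genes. The gene called lower was Hist4h4, with 0, 3.70 and 8.86 FPKM in KO and 42.8, 40.2 and 14.3 FPKM in WT (log2 change -3.07, SE 0.80, limma adjusted p = 0.046). Of 10 tested genes of DNA methylation 3 (30.0%) were called higher and 1 (10.0%) lower, with a median of 0.47 against 0.13 for genes of like length. Next to Dppa3, Uhrf1, which brings the maintenance methyltransferase to DNA, stood at 590.01, 625 and 585 FPKM in the KO libraries and 357, 405 and 325 FPKM in the WT libraries (log2 change 0.73, SE 0.11, limma adjusted p = 0.00768), and Dnmt3l, a cofactor of de novo methylation, rose by 0.66 (limma adjusted p = 0.0274). Tet3, the oxidase of the zygote, stood at 149, 178 and 181 FPKM in the KO libraries and 263, 288 and 231 FPKM in the WT libraries and was lower in each KO library (log2 change -0.62, SE 0.14, limma adjusted p = 0.0279). With KO replicate 2 left out, the call of Cenpa ended (limma adjusted p up to 0.0555). The call of Hist1h1e did not hold without KO replicate 1, 2 or 3 (limma adjusted p up to 0.0853). Hist1h4d, Hist4h4, Dnmt3l and Tet3 were called in 1 to 2 of the 6 fits that left out 1 library, and KO replicates 1, 2 and 3 and WT replicates 1, 2 and 3 were among the libraries whose absence ended a call (limma adjusted p up to 0.128).

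Few genes of RNA processing were called. Dicer1, which makes the endogenous siRNAs of the mouse oocyte, stood at 80.6, 74.4 and 84.2 FPKM in the KO libraries and 43.2, 40.1 and 29.2 FPKM in the WT libraries (log2 change 1.08, SE 0.20, limma adjusted p = 0.0132) and was the only 1 of 17 tested small RNA genes called. Of 46 DDX and DHX helicases 2 were called, Ddx5, which rose by 0.85 (limma adjusted p = 0.0191), and Dhx35, listed at 4.09, 8.73 and 3.33 FPKM in KO and at 0 in all WT libraries. Of 44 splicing factors 1 was called, Srsf3, at 75.7, 96.7 and 96.9 FPKM in the KO libraries and 33.2, 36.7 and 44.2 FPKM in the WT libraries (log2 change 1.22, SE 0.19, limma adjusted p = 0.0082). None of 18 nucleoporin genes was called by limma, and 3 had an unadjusted p under 0.05, against 26.3% of all genes tested. Zinc finger genes named Zfp, 214 tested, had 13 called higher and 10 lower, shares of 6.07% and 4.67% against 5.64% and 4.73% of all genes. Zfp51 fell from 71.4, 70.7 and 93.4 FPKM to 7.86, 18.6 and 26.4 FPKM (log2 change -2.23, SE 0.39, limma adjusted p = 0.0111). Of 146 solute carriers 10 (6.85%) were called higher and 1 (0.685%) lower, with a median of 0.09 against 0.13 for genes of like length. Slc25a30, a mitochondrial carrier, stood at 6.70, 7.85 and 9.07 FPKM in the KO libraries and 0, 0 and 0.252 FPKM in the WT libraries. Slc35b3, a carrier of activated sulfate, fell by 2.03 (limma adjusted p = 0.0096). Removing KO replicate 1, 2 or 3 ended the call of Dicer1 (limma adjusted p up to 0.0641). Once KO replicate 2 or 3 was left out, the call of Ddx5 ended (limma adjusted p up to 0.0897).

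In the 8 genes with the largest falls at a mean of at least 5 FPKM, the KO libraries stood between 0 and 7.08 FPKM. Cxcr3, a chemokine receptor, was listed at 0 in all KO libraries and at 56.6, 49.1 and 36.3 FPKM in WT. Spry1, an inhibitor of receptor tyrosine kinase signalling, stood at 7.08, 3.09 and 4.22 FPKM in the KO libraries and 120.5, 77.2 and 94.6 FPKM in the WT libraries. The lowest WT library lay far above the highest KO library (log2 change -4.12, SE 0.32, limma adjusted p = 0.000669). Socs1, an inhibitor of cytokine signalling, stood at 3.52, 0 and 1.95 FPKM in the KO libraries and 54.6, 51.3 and 52.4 FPKM in the WT libraries (log2 change -4.50, SE 0.54, limma adjusted p = 0.00296). Tfap2c, a transcription factor of the trophectoderm, stood at 0, 0 and 1.97 FPKM in the KO libraries and 21.4, 19.9 and 29.5 FPKM in the WT libraries (log2 change -4.08, SE 0.53, limma adjusted p = 0.00386). Batf3, another transcription factor, stood at 0, 0.440 and 0 FPKM in the KO libraries and 18.012, 23.4 and 17.3 FPKM in the WT libraries, and Pard6g, a polarity protein, was listed at 0 in all KO libraries and at 35.3, 24.1 and 8.42 FPKM in WT. Pnpla3, a lipase, stood at 0, 0.0427 and 0.0448 FPKM in the KO libraries and 51.1, 22.6 and 19.4 FPKM in the WT libraries. Coa3, an assembly factor of cytochrome c oxidase, stood at 0, 3.48 and 0 FPKM in the KO libraries and 42.5, 29.0 and 13.7 FPKM in the WT libraries (log2 change -4.02, SE 0.69, limma adjusted p = 0.0105). Leaving out KO replicate 3 ended the call of Coa3 (limma adjusted p up to 0.0503).

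In the 8 genes with the largest rises at such a mean, the WT libraries stood between 0 and 18.2 FPKM. Hist1h4d stood at 35.2, 59.9 and 61.3 FPKM in the KO libraries and 0, 18.2 and 0 FPKM in the WT libraries, with WT replicate 2 apart from the other WT libraries (log2 change 4.27, SE 1.03, limma adjusted p = 0.0341). Klhl21, a cullin adaptor, stood at 20.1, 20.7 and 36.6 FPKM in the KO libraries and 0.0866, 9.5016 and 0.102 FPKM in the WT libraries, again with WT replicate 2 apart (log2 change 3.47, SE 0.84, limma adjusted p = 0.0347), as did Fam174b at 20.8, 23.4 and 37.9 FPKM in the KO libraries and 1.24, 9.36 and 0 FPKM in the WT libraries (log2 change 3.27, SE 0.77, limma adjusted p = 0.0319). Wbp5, a small Tceal-family protein, was listed at 0 in all WT libraries and at 23.9, 15.6 and 11.1 FPKM in KO. Its relative Tceal8 stood at 52.5, 55.1 and 54.019 FPKM in the KO libraries and 6.83, 8.15 and 8.86 FPKM in the WT libraries, a tight rise in each library (log2 change 2.62, SE 0.24, limma adjusted p = 0.00135). Pls3, an actin bundler, stood at 8.70, 12.5 and 21.9 FPKM in the KO libraries and 1.70, 0 and 0 FPKM in the WT libraries (log2 change 3.38, SE 0.57, limma adjusted p = 0.00991), and Zfp869 was listed at 0 in WT and at 12.7, 22.6 and 3.46 FPKM in KO. Ccl2, a chemokine, stood at 22.3, 26.7 and 31.6 FPKM in the KO libraries and 0, 0 and 5.03 FPKM in the WT libraries (log2 change 3.92, SE 0.70, limma adjusted p = 0.0116). It belonged to a list of 200 chemokine, cytokine and receptor genes of which 37 were tested, 3 called higher and 3 lower (8.11% each). The call of Ccl2 was lost without KO replicate 2 or 3 (limma adjusted p up to 0.0594). Without KO replicate 3, the call of Pls3 was lost (limma adjusted p up to 0.0507). Hist1h4d, Klhl21 and Fam174b were called in 1 of the 6 fits that left out 1 library, and KO replicates 1, 2 and 3 and WT replicates 1 and 3 were among the libraries whose absence ended a call (limma adjusted p up to 0.136).

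Of 17 markers of granulosa cells 8 were tested and 4 called higher, of which Inhba, Gja1 and Fshr passed the filter through KO alone. Inha, the alpha subunit of inhibin, stood at 51.4, 39.4 and 39.5 FPKM in the KO libraries and 9.58, 0 and 8.11 FPKM in the WT libraries (log2 change 3.27, SE 0.80, limma adjusted p = 0.0364). Inhba, a beta subunit, stood at 3.72, 8.27 and 11.9 FPKM in the KO libraries and 0.252, 0 and 0 FPKM in the WT libraries, and Gja1, the connexin of granulosa cells, was listed at 0 in all WT libraries and at 4.91, 10.9 and 6.98 FPKM in KO. Fshr, the receptor for follicle-stimulating hormone, stood at 4.36, 3.14 and 6.74 FPKM in the KO libraries and 0, 0 and 0.69955 FPKM in the WT libraries. Cyp19a1, aromatase, stood at 14.6, 23.5 and 34.5 FPKM in the KO libraries and 62.0, 19.0 and 32.0 FPKM in the WT libraries and overlapped (log2 change -0.54, SE 0.45, limma adjusted p = 0.495). Foxl2, Amhr2, Ptx3, Has2 and Tnfaip6, which also mark these cells, were listed at 0 in all 6 libraries. The highest value among these markers, that of Cyp19a1 in WT replicate 1, lay below the lowest of Gdf9, the highest oocyte marker. It lay within the range of the oocyte markers Zp2 (35.2 to 96.2 FPKM) and Figla (32.1 to 87.3 FPKM). It lay above Ddx4 (6.54 to 18.1 FPKM) and below every value of the other oocyte markers. With KO replicate 1, 2 or 3 left out, the call of Inha ended (limma adjusted p up to 0.125).

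The RNP pool of the same study, from the top of the gradients, was used to show where polysome changes differed. There 2057 of 9931 genes (20.7%) were called between KO and WT by the same test. Of the 538 genes called higher in polysomes 516 were tested in the RNP pool, 494 with a change of the same sign, and 274 were called higher there too, which is 50.9% of the polysome calls and 26.2% of the 1044 RNP calls. Of the 451 called lower 445 were tested, 409 had the same sign and 306 were called lower there too, 67.8% of the polysome calls and 30.2% of the 1013 RNP calls (10.2% of the 9931 genes tested in that pool). The median RNP change of the 2 sets was 0.78 and -1.09, against 1.35 and -1.50 in polysomes, where the sets were chosen. Lsm14b was lower in the RNP pool as well (log2 change -4.63, limma adjusted p = 5.66e-05).

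Whether the change differed between the pools was tested in 1 model of all 12 libraries, with an interaction term, and 26 of 10949 genes (0.237%) passed. Of genes called in polysomes, 5 were called in the opposite direction in the RNP pool. Tmsb4x changed by -2.59 in polysomes and by 2.61 in the RNP pool (interaction, limma adjusted p = 0.0204). Wdyhv1, which deamidates N-terminal glutamine, was listed in polysomes at 7.99, 13.8 and 5.99 FPKM in KO and at 0 in all WT libraries, and changed by -2.08 in the RNP pool. Cetn2, a centrin, changed by -0.45 and 1.31 (interaction, limma adjusted p = 0.0109). Sdhaf4, an assembly factor of succinate dehydrogenase, and Stra13 changed by -1.02 and -0.56 in polysomes and by 0.63 and 0.63 in the RNP pool. The interaction passed for Wdyhv1, Sdhaf4 and Stra13 as well (limma adjusted p = 0.0204, 0.0243 and 0.0243). The polysome calls of Cetn2, Sdhaf4 and Stra13 had limma adjusted p = 0.0439, 0.0247 and 0.0354. Whether these calls held with 1 library left out is not given here. Zar1 differed by -0.02 in the RNP pool against -1.15 in polysomes, but its interaction did not pass (limma adjusted p = 0.336). With the polysome and RNP library of 1 number taken as a pair within each genotype, no interaction passed limma, and 1129 had an unadjusted p under 0.05.

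**Figure D5:**
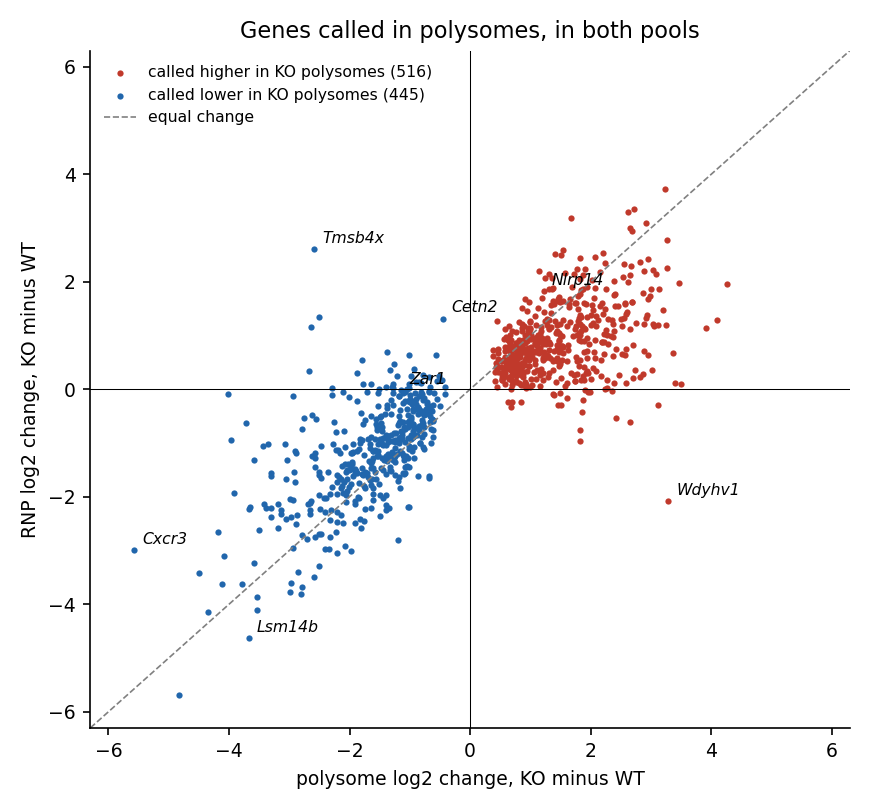
Log2 change between KO and WT in the RNP pool (vertical axis) against that in polysomes (horizontal axis), both on log2(FPKM + 1), for the genes called higher (red, 516) or lower (blue, 445) in polysomes that were also tested in the RNP pool. Most points lie in the quadrants of equal sign, and Tmsb4x and Wdyhv1 lie far out in the opposite quadrants.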

How the data were processed

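Polysome RNA of WT and KO GV-stage oocytes was amplified by the Smart-seq2 procedure and sequenced, with 3 libraries of each genotype. Per the labels and the study's methods, the authors aligned the reads to mm10 with TopHat2 2.0.13 and deposited FPKM per gene symbol, calculated with Cufflinks 2.2.1. The annotation release and the use of strand are not given in the sources used here, and the kit and the top sucrose concentration differ between the sources. The deposited table also holds 54 columns of the authors' own comparisons (log2 changes, p-values and q-values), which were not used. FPKM holds no counts, so no count test was run.

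A gene was tested where its level reached 1 FPKM in 3 or more of the 6 libraries, on log2(FPKM + 1) with limma 3.58.1 in R 4.3.3, whose empirical Bayes step followed the intensity trend. P-values were adjusted by the Benjamini-Hochberg method over all 9536 genes, and a gene was called at an adjusted p under 0.05. Changes are KO minus WT on that scale, which understates those of low genes. The RNP pool was tested likewise, and the interaction of genotype and pool over 12 libraries. Lsm14b and Lsm14a also had an exact permutation test. Tables were summarised with pandas 2.3.3 (Python 3.11.15), scipy 1.17.1 and numpy 2.4.6, and drawn with matplotlib 3.10.9.

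The 50 gene lists, described by counts and medians alone, and the members were chosen with earlier results of these data known. Genes were named by rule: Lsm14b and Lsm14a, the 8 largest called rises and falls at a mean of at least 5 FPKM without overlap, the 6 most abundant called genes in each direction, and for each list the most abundant member and up to 3 called members in each direction. Other called members, the genes turned between pools and Mir300 were named after their values were seen. Positions, exons, transcript lengths and 3' ends came from GENCODE M21 (GRCm38, the build of mm10), with the longest transcript of a gene. Library depth was an estimate: the step between low FPKM values of a gene was scaled by its length less 200 bases. The fit was tested on simulated data of 9536 genes. With a log2 change of 1 put into 200 of them limma called 11 genes, all of them changed, and with a change of 2 it called 102, of which 98 were changed. The alternatives were pseudocounts of 0.1 and 5, no filter and a filter at 5 FPKM, rescaling to the same median, quantile normalization, no intensity trend, a replicate block, and each library left out in turn.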

Additional observations from a re-analysis of the deposited data

Results flagged for a closer look

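For 6 of the genes named by rule, the change between KO and WT differed between the polysome and the RNP pool by limma's interaction test over all 12 libraries. Cetn2, Wdyhv1, Sdhaf4 and Stra13, described above, were not named by rule and passed that test too. The difference, polysome change minus RNP change on the log2 scale, was -5.20 for Tmsb4x (limma adjusted p = 0.0204), which fell in polysomes and rose in the RNP pool. It was 2.97 for Zfp784 (limma adjusted p = 0.0204), which stood in polysomes at 5.26, 4.02 and 4.69 FPKM in the KO libraries and 0, 0.0807 and 0.0651 FPKM in the WT libraries, so that it passed the filter there through KO alone. Actb and Hsp90aa1 were higher in KO polysomes by more than in the RNP pool, with differences of 0.85 (limma adjusted p = 0.0206) and 0.78 (limma adjusted p = 0.0297). For C86187 the fall in polysomes was smaller than that in the RNP pool, and the difference was 0.76 (limma adjusted p = 0.0416). Cox8a, a subunit of cytochrome c oxidase, differed by -1.27 (limma adjusted p = 0.0204), with a polysome change of -0.41 that did not pass (limma adjusted p = 0.136) and an RNP change of 0.87 that did (limma adjusted p = 0.000752). None of these differences passed limma once the libraries of 1 number were taken as pairs within each genotype, and 1129 genes then had an unadjusted p under 0.05.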

How the results depend on the processing

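Without the filter on low values 545 genes were called, 307 higher and 238 lower, and without an intensity trend 508, with 276 higher and 232 lower, against 989, 538 and 451. Pseudocounts of 0.1 and 5, a filter at 5 FPKM, rescaling to the same median and quantile normalization gave 799 to 1054 calls. With 1 library left out, 317 to 784 genes were called, 129 to 460 higher and 188 to 356 lower. The lowest counts came without KO replicate 3.

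The labels number the replicates of each genotype alike but do not say that a number marks a shared collection. The deviations of same-numbered KO and WT libraries from their group means correlated at -0.0242, 0.0156 and -0.0201, and of the 6 libraries only WT replicate 2 correlated best with its own number, so the numbers were not taken as pairs. With the number as a replicate block, 672 genes were called, 341 higher and 331 lower, and 639 of them were among the 989. With the replicate block, the interaction of genotype and pool passed for 0 genes by limma, against 26 without it, and 1129 genes had an unadjusted p under 0.05.

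Of 171 genes named by rule 141 were called, 57 of these in all 6 fits that left out 1 library, and 106 with the replicate block. Quantile normalization turned the change of Bpgm to -0.12 and the change of Ldhb to -0.03002, and the cause was not tested. Of 44 list medians set against that of all genes, 32 kept their sign under all 14 alternatives. Those of splicing factors and Zfp genes turned under 7. Depth is known only as an estimate, and a listed 0 does not show that an mRNA was absent.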

Other observations

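Genes of immune signalling and noncoding RNA that were not described above changed in single cases. Il23a, a subunit of interleukin 23, stood at 22.3, 39.3 and 18.5 FPKM in the KO libraries and 5.10, 11.4 and 3.76 FPKM in the WT libraries (log2 change 1.89, SE 0.45, limma adjusted p = 0.0337). Ccr3, a chemokine receptor, was listed at 4.34, 1.94 and 3.03 FPKM in KO and at 0 in all WT libraries. Il10rb, a chain of the interleukin 10 receptor, stood at 3.24, 5.12 and 3.04 FPKM in the KO libraries and 21.7, 20.2 and 14.3 FPKM in the WT libraries, lower in each KO library (log2 change -2.04, SE 0.37, limma adjusted p = 0.0125). Il17f, the highest tested gene of that list, stood at 61.5, 102 and 64.6 FPKM in the KO libraries and 45.3, 112 and 43.2 FPKM in the WT libraries and overlapped (log2 change 0.29, SE 0.37, limma adjusted p = 0.667). Mir22hg, the host gene of Mir22, was the only one of 1282 listed small RNA and host genes that passed the filter on low values, and it stood at 1.08, 4.42 and 6.18 FPKM in the KO libraries and 36.4, 65.5 and 23.6 FPKM in the WT libraries (log2 change -3.19, SE 0.55, limma adjusted p = 0.0105), with exons that overlap Mir22. The call of Il10rb did not hold without KO replicate 3 (limma adjusted p up to 0.0558). Il23a was called in 1 of the 6 fits that left out 1 library, and KO replicates 1, 2 and 3 and WT replicates 1 and 3 were among the libraries whose absence ended the call (limma adjusted p up to 0.148).

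Zinc finger and solute carrier genes held further changes. Zfp3 stood at 0.0946, 4.86 and 0.647 FPKM in the KO libraries and 14.7, 38.3 and 25.9 FPKM in the WT libraries (log2 change -3.54, SE 0.66, limma adjusted p = 0.0137), and Zfp524 at 7.98, 6.40 and 9.18 FPKM in the KO libraries and 22.957, 97.3 and 33.7 FPKM in the WT libraries (log2 change -2.31, SE 0.49, limma adjusted p = 0.0219). Both were lower in each KO library. Slc30a2, a zinc transporter, stood at 9.96, 10.1 and 10.0 FPKM in the KO libraries and 1.39, 0.149 and 1.45 FPKM in the WT libraries (log2 change 2.55, SE 0.47, limma adjusted p = 0.0126), and Slc39a1, another zinc transporter, at 10.1, 5.89 and 7.01 FPKM in the KO libraries and 0.228, 0.219 and 2.89 FPKM in the WT libraries (log2 change 2.24, SE 0.57, limma adjusted p = 0.0416), and both were higher. Removing KO replicate 3 ended the call of Zfp3 (limma adjusted p up to 0.0618). Once KO replicate 1, 2 or 3 was left out, the call of Zfp524 ended (limma adjusted p up to 0.09). Leaving out KO replicate 2 or 3 ended the call of Slc30a2 (limma adjusted p up to 0.0579). Slc39a1 was called in 1 of the 6 fits that left out 1 library, and KO replicates 1, 2 and 3 and WT replicates 1 and 2 were among the libraries whose absence ended the call (limma adjusted p up to 0.133).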
